A study of Rattus norvegicus with 6 samples.

Results

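The 121 genes described here encode serpins, serine proteases and other protease inhibitors, clotting factors and genes of fibrinolysis. They were chosen by gene symbol (the Serpin, Tmprss, Prss, Klk, Spint, Itih, Cst and Htra families, the coagulation factors with a factor number, the thrombin receptor family, the fibrinogen chains, and A2m, Lxn, Plat, Plau, Plaur, Plg, Proc, Pros1, Thbd, Tfpi and Tfpi2) among 13355 genes measured on Affymetrix rat arrays. In all, 141 symbols matched; 20 of them, Serpinb2 among these, had no valued probe and are not analysed here. The 6 arrays fall into 2 groups. In the fibrinogen group (n = 3), primary rat OPCs (oligodendrocyte progenitor cells, the glial precursors of the cells that form myelin) received fibrinogen for 48 h in differentiation medium, and in the control group (n = 3) the OPCs are labelled unstimulated with the same 48 h, their medium not being stated. Both groups came from pups of postnatal day 1 to 2 and recovered for 2 days in proliferation medium with PDGF and NT3. No genetic change, strain or fibrinogen dose is named in the labels, nor whether the arrays of a group came from separate cultures, so the p-values measure the spread between these arrays, which may be technical.

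Fibrinogen is the plasma protein that thrombin cuts into fibrin, the mesh of a clot. Clotting outside vessels starts when tissue factor on a cell meets circulating factor VII, and it ends when plasminogen activators turn plasminogen into plasmin, which dissolves fibrin. Serpins, cystatins, Kunitz-type inhibitors and the macroglobulins hold proteases in check; in the nervous system the tissue-type activator and its serpin inhibitors also act away from clots, on matrix and on synapses. The comparison bears on how OPCs adjust these genes when they meet fibrinogen, which reaches brain tissue after vascular damage.

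Of the 121 genes, 5 were higher and 2 were lower with fibrinogen at an adjusted p of 0.05 (limma, Benjamini-Hochberg over all 13355 genes), and 114 did not pass. The genes that rose were Lxn, A2m, F3, Plat and Cst3, and those that fell were Serpini1 and Tmprss11f. These 7 are 5.79% of the members, beside 7.16% of all genes (4.16% higher and 3.00% lower), so the share called was near that of the array as a whole. The members' median log2 fold change was -0.04, against 0.003 for all genes; it was -0.09, against -0.04, with arrays centred on their medians and -0.03, against -0.008, with quantile normalization again. Leaving out fibrinogen 1, 2 or 3 lowered the count to 4 each time; Lxn, F3, A2m and Tmprss11f kept their call without any 1 of the 6 arrays.

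Most of these genes gave a dim signal. For 105 of the 121 members the mean over the 6 arrays was under that of the median probe (5.81 on the log2 scale), and without a detection call such a probe cannot be told from background. Among the 16 members at or above the median probe, 5 rose and 1 fell (37.5%, beside 11.2% of all genes at or above it), and among the 105 below it 1 fell (0.952%, beside 1.93% of all genes below it). The first share rests on 16 genes, and the members were chosen with earlier results known. Of the 6 called there, Plat, Cst3 and Serpini1 lost their call under 9, 7 and 9 of the 15 alternatives. In the deposited values the median log2 fold change was -0.04 for all 5811 genes below the median probe, 0.03 for the 7544 others, and -0.06 for the 105 dim members. Centring the arrays on their medians shifts every gene by the same amount and cannot change this gap between dim and other genes. The medians of all genes below and above the median probe were then -0.083 and -0.017. With quantile normalization again the gap was narrower, with medians of -0.009 and -0.006. The groups did not overlap for 23 members, 13 of them higher and 10 lower with fibrinogen, beside 27.0% of all genes.

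**Figure D1:**
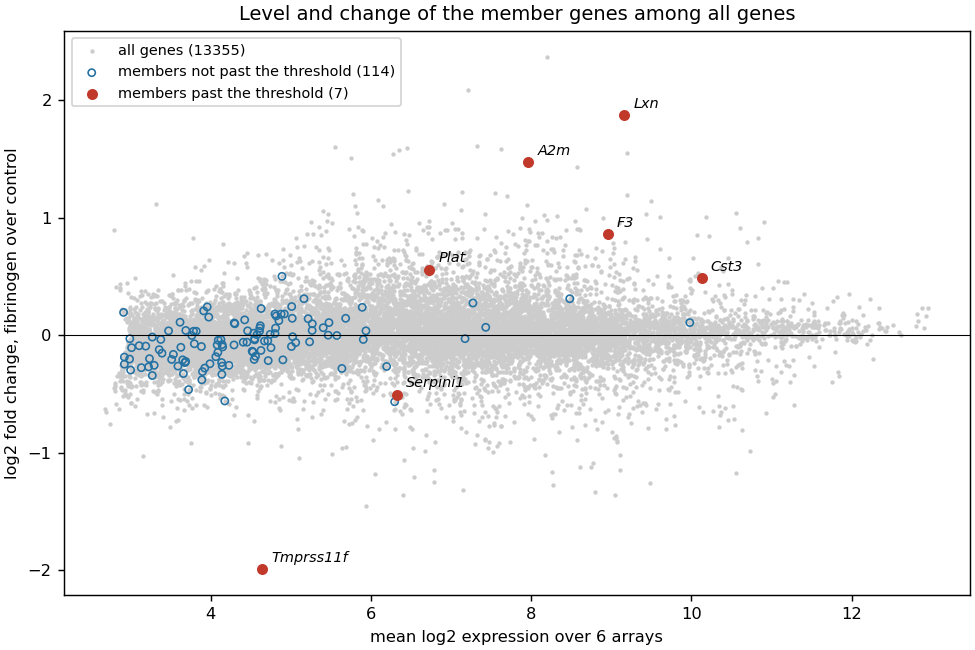
Each point is a gene, with its mean log2 expression over the 6 arrays on the x axis and its log2 fold change, fibrinogen over control, on the y axis; grey points are all 13355 genes, open circles the 114 members that did not pass and filled circles the 7 that did. Most members lie at the dim left side near 0, Lxn, A2m, F3, Plat and Cst3 lie above 0, and Tmprss11f is the lowest point on the plot at -1.99.

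The cell type label was checked against markers. All 5 measured progenitor markers lay at or above the median probe, Pdgfra, Cspg4 and Olig1 rose, Gpr17 and Sox10 did not pass (log2 fold changes -0.14 and -0.09), and the list's mean log2 level ran from 10.24 to 10.31 in fibrinogen arrays and from 9.93 to 10.02 in control arrays. Of 5 astrocyte markers, Gfap and Slc1a3 rose and Aqp4, Gja1 and S100b did not pass (list mean 7.96 to 8.06 in fibrinogen arrays, 7.77 to 7.79 in control arrays). Of 4 measured oligodendrocyte markers, Mbp, Mag and Cnp fell and Mog did not pass (list mean 9.76 to 9.84 in fibrinogen arrays, 10.18 to 10.24 in control arrays). Of 4 neuron markers, Syt1 fell and 3 did not pass (7.25 to 7.45 in fibrinogen arrays, 7.62 to 7.78 in control arrays). Markers of microglia (7 of 8 below the median probe), endothelium (4 of 4) and pericytes and fibroblasts (5 of 6) were dim, and of these only Itgam, which fell, was called. In these bulk cultures fewer cells of a type and less RNA per cell cannot be told apart. The part of the astrocyte, oligodendrocyte, neuron and microglia markers in the results below was not tested.

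The start regions of the called genes are shown to give the sequence next to the transcripts that changed. RefSeq's table (build GRCr8) holds a promoter window for 92 of the 121 members, Lxn, Cst3, Serpini1 and Tmprss11f among the called genes. The 250 bases before the annotated start follow for Lxn, the gene with the largest rise, Cst3, another inhibitor that rose, and Serpini1, the serpin that fell. They are written 5′ to 3′ on the gene's strand, and capitals mark matches to GGGCGG (the Sp1 GC box) and CAGACA (the CAGA element bound by SMAD proteins). Lxn lies at chr2:154043474-154043723 (minus strand), Cst3 at chr3:156793938-156794187 (minus strand) and Serpini1 at chr2:162645112-162645361 (plus strand).
Lxn: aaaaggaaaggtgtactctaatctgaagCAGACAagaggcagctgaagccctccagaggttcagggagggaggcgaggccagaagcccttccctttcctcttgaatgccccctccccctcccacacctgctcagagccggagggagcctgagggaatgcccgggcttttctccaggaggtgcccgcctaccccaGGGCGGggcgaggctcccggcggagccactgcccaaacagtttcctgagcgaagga
Cst3: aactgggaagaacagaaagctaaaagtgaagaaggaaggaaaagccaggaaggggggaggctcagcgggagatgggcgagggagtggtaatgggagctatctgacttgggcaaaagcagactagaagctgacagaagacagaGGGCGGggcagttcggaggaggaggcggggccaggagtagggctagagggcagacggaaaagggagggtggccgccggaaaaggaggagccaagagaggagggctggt
Serpini1: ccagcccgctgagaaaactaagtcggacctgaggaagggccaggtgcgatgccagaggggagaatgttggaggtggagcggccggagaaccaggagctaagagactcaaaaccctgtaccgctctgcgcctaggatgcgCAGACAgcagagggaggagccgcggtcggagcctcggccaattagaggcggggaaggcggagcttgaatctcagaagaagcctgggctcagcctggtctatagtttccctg
The search covered both strands for 6 motifs: the Sp1 box GGGCGG, the CAGA element CAGACA, the GC-rich SMAD element GGCGCC, the palindromic SMAD element GTCTAGAC, the AP-1 element TGANTCA and the TATA box TATAAA; the Sp1 box and the GC-rich element can share bases. Lxn holds CAGACA at 222 to 217 bases and GGGCGG at 56 to 51 bases before its start, Cst3 holds GGGCGG at 108 to 103, and Serpini1 holds CAGACA at 111 to 106. The window of Tmprss11f held none of the 6. Matches of this kind are common: of 33469 annotated rat starts, 30.5% hold GGGCGG, 17.2% CAGACA, 12.9% TATAAA, 8.69% GGCGCC, 6.34% TGANTCA and 0.173% GTCTAGAC in the same 250 bases. Among the 92 members with a window, 25 hold GGGCGG, 23 CAGACA, 11 TGANTCA, 7 TATAAA, 4 GGCGCC and 1 GTCTAGAC. A match is a description of the letters and not a site. The windows of Lxn, Cst3, Serpini1 and Tmprss11f are 62.8%, 58.8%, 60.8% and 50.8% G and C, beside a median of 54.4% over the 92 member windows and 51.2% over all windows.

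Among clotting genes, tissue factor rose. F3 (probe set 10818708) encodes tissue factor, the membrane protein that binds factor VII and triggers clotting, and which astrocytes are known to express in the brain. Its log2 expression was 9.28, 9.37 and 9.50 in the fibrinogen arrays, against 8.53, 8.47 and 8.58 in the control arrays. All 3 fibrinogen arrays lay above all 3 control arrays, and the replicates of each group stayed close together. F3 rose 1.81-fold (log2 fold change 0.86, SE 0.08, 95% interval 0.66 to 1.06, adjusted p = 0.00313). Its call held under all 15 alternatives run, with a highest adjusted p of 0.0256.

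The 15 other clotting factors, fibrinogen chains and anticoagulants did not pass, with log2 fold changes between -0.28 and 0.27. Pros1 (protein S, an anticoagulant cofactor that also activates TAM receptors) stood at 7.26, 7.43 and 7.54 in fibrinogen arrays, against 7.09, 7.16 and 7.16 in control arrays. The groups did not overlap, with a log2 fold change of 0.27 (95% interval 0.06 to 0.49, adjusted p = 0.138). Thbd (thrombomodulin, which turns thrombin toward protein C activation) was at the other end at -0.28 (95% interval -0.57 to 0.01), with dim values of 3.73 to 3.86 in fibrinogen arrays and 3.81 to 4.25 in control arrays. The fibrinogen chain genes Fga, Fgb and Fgg, which liver cells transcribe, were dim in both groups. Fga ranged over 4.58 to 4.98 with fibrinogen and 4.12 to 4.72 in control, Fgb over 3.47 to 3.61 with fibrinogen and 3.72 to 3.93 in control, and Fgg over 3.19 to 3.44 with fibrinogen and 3.25 to 3.55 in control. Of the 3 chains, only Fgb had groups that did not overlap (log2 fold change -0.23, adjusted p = 0.192). F2 (prothrombin) was at -0.07, F5 (the factor Xa cofactor) at 0.04, F7 (the partner of tissue factor) at -0.08, F8 (the factor IXa cofactor) at 0.24 and F10 (the protease that makes thrombin) at -0.26 on the log2 fold change scale. The anticoagulants Proc (protein C), Tfpi (the tissue factor pathway inhibitor) and its relative Tfpi2 were at 0.04, 0.03 and 0.21. F2, F5, F7, F8, F10, Proc, Tfpi and Tfpi2 all lay below the median probe, so their changes describe dim signals. In this role 14 of the 16 members lay below it, and F3 and Pros1 lay above it.

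**Figure D2:**
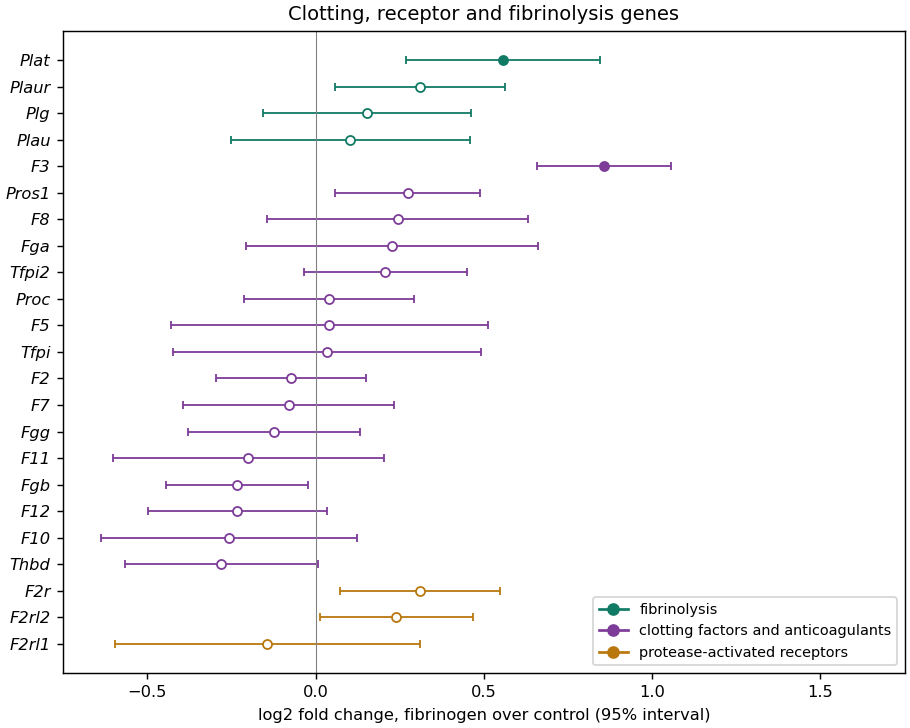
Each row is a gene of fibrinolysis (top), clotting and anticoagulation (middle) or the protease-activated receptors (bottom), with its log2 fold change, fibrinogen over control, on the x axis and its 95% interval; filled points passed the threshold. F3 at 0.86 and Plat at 0.56 are the filled points, and the whole interval of F3, 0.66 to 1.06, lies above the point of every other gene on the plot.

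The 3 protease-activated receptors measured did not pass. F2rl3, another gene of this family listed by name, was not measured. F2r (protease-activated receptor 1, the receptor that thrombin cleaves) stood at 8.69, 8.55 and 8.67 in fibrinogen arrays, against 8.43, 8.14 and 8.41 in control arrays. All 3 fibrinogen values were above all control values, and the log2 fold change was 0.31 (SE 0.10, 95% interval 0.07 to 0.55, adjusted p = 0.131). It passed in limma with an intensity trend in the variance (adjusted p = 0.0285). F2rl2 (receptor 3, a thrombin-binding partner) also had groups apart, at a dim 3.95 to 4.17 with fibrinogen and 3.70 to 3.92 in control (0.24, adjusted p = 0.213). F2rl1 (receptor 2, cleaved by trypsin-like proteases) overlapped, at -0.14 (95% interval -0.60 to 0.31).

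Of the 4 fibrinolysis genes, 1 rose and all 4 changes were positive, also with arrays centred or quantile normalized again. For comparison, 6704 of all 13355 genes had a positive change in the deposited values, and 3 of the 4 lay below the median probe. Plat (10792421), the tissue-type plasminogen activator, stood at 7.12, 6.91 and 6.99 in fibrinogen arrays, against 6.25, 6.68 and 6.42 in control arrays. The groups did not overlap, with control 2 the closest to the fibrinogen arrays. Plat rose 1.47-fold (log2 fold change 0.56, SE 0.12, 95% interval 0.27 to 0.85, adjusted p = 0.0411). The call was close to the threshold: it was lost without control 1 or 3 and without any 1 fibrinogen array (highest adjusted p = 0.141, without fibrinogen 1), and was kept without control 2. It was also lost with a replicate block in the fit and with arrays centred on their medians (adjusted p = 0.0504). The other losses were with p adjusted over all valued probes (0.0626) and in the unmoderated model (0.142). Plaur, the urokinase receptor, was at 5.43, 5.43 and 5.10 with fibrinogen, against 4.97, 4.99 and 5.07 in control; the lowest fibrinogen array lay just above the highest control array, and the change did not pass (log2 fold change 0.31, adjusted p = 0.152). Plau (urokinase) and Plg (plasminogen, the precursor of plasmin) were dim and overlapped, with log2 fold changes of 0.10 (95% interval -0.25 to 0.46) and 0.15 (95% interval -0.16 to 0.46).

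Of 26 serpins, 1 fell (3.85%, beside 3.00% of all genes) and 25 did not pass. The median log2 fold change was -0.13, and 18 of the 26 changes were negative. The median was -0.18 with arrays centred on their medians and -0.09 with the deposited values quantile normalized again, and 22 of the 26 lay below the median probe. Of all 5811 genes below that probe, 3340 had a negative change. Serpini1 (10815962) encodes neuroserpin, an inhibitor of the tissue-type plasminogen activator made in the nervous system. Its log2 expression was 6.19, 6.02 and 6.01 in fibrinogen arrays, against 6.48, 6.76 and 6.50 in control arrays. Every fibrinogen array lay below every control array, and the gene fell 1.42-fold (log2 fold change -0.51, SE 0.10, 95% interval -0.75 to -0.26, adjusted p = 0.0322). The call was lost without any 1 of the 6 arrays (adjusted p = 0.0532 without control 1 to 0.114 without fibrinogen 3). Its fold change stayed between -0.57 and -0.42 across those 6 fits.

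Serpine2 (protease nexin-1, an inhibitor of thrombin and plasminogen activators) stood at 9.99, 10.08 and 10.03 with fibrinogen, against 9.90, 9.94 and 9.94 in control. The groups did not overlap, but the log2 fold change of 0.11 (95% interval -0.06 to 0.27) did not pass. Serpinh1 (HSP47, a collagen chaperone that inhibits no protease) overlapped at 7.07 to 7.26 with fibrinogen and 7.12 to 7.29 in control, a log2 fold change of -0.03 (95% interval -0.23 to 0.17). Serpinf2 (the plasmin inhibitor alpha-2-antiplasmin) had groups apart at a dim 4.77 to 4.84 with fibrinogen and 4.95 to 5.09 in control, and did not pass (-0.21, adjusted p = 0.161). Serping1 (the complement C1 inhibitor), Serpinc1 (antithrombin), Serpind1 (heparin cofactor II), Serpinf1 (pigment epithelium-derived factor) and Serpinb9 (the granzyme B inhibitor) were at -0.08, 0.16, 0.003, 0.01 and 0.04 on the log2 fold change scale. Serpina3n, a serpin that reactive astrocytes are known to express, was at 4.45 to 4.80 with fibrinogen and 4.02 to 5.33 in control, where control 1 was the highest of all 6 arrays. Its change of 0.08 (95% interval -0.64 to 0.80, adjusted p = 0.918) did not pass. The 10 members of the Serpina clade had log2 fold changes of -0.31 to 0.08 and the 8 of the Serpinb clade -0.33 to 0.19.

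**Figure D3:**
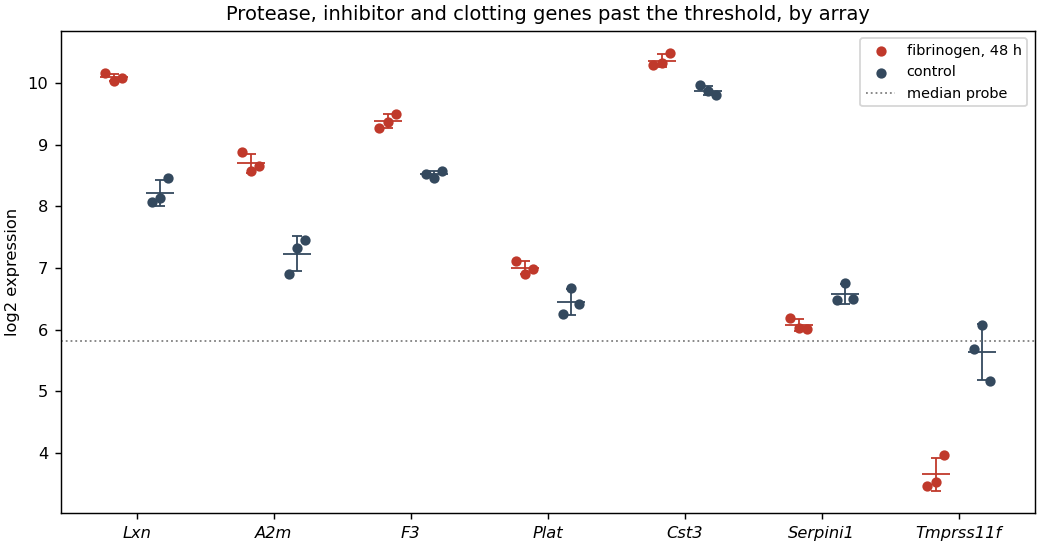
Points are the log2 expression values of the 3 fibrinogen arrays (red, left of each pair) and the 3 control arrays (dark, right) for the 7 genes past the threshold, with bars at the mean and ± 1 SD; the dotted line is the median probe at 5.81. The groups are apart for all 7, widest for Lxn and Tmprss11f, and Tmprss11f has its fibrinogen values between 3.46 and 3.96.

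The largest rises were among the protease inhibitors that are neither serpins nor counted with the clotting genes (A2m, Lxn and the Cst, Spint and Itih genes), of which 3 of 15 rose and 12 did not pass. Lxn (10823548), latexin, an inhibitor of metallocarboxypeptidases, stood at 10.16, 10.04 and 10.09 with fibrinogen, against 8.07, 8.14 and 8.46 in control. The gap between the groups was far wider than the spread within them, and the gene ranked number 3 among the rises of all 13355 genes. Its log2 fold change was 1.87 (SE 0.11, 95% interval 1.61 to 2.14, adjusted p = 0.00141), and it kept its call under all 15 alternatives (highest adjusted p = 0.0238). A2m (10858408), alpha-2-macroglobulin, which traps proteases of all classes and is an acute-phase plasma protein in rats, stood at 8.88, 8.58 and 8.65 with fibrinogen, against 6.91, 7.33 and 7.45 in control. The lowest fibrinogen array was more than a full log2 unit above the highest control array. A2m rose 2.78-fold (log2 fold change 1.47, SE 0.15, 95% interval 1.11 to 1.84, adjusted p = 0.00346), number 12 among all rises, and it too kept its call under all 15 alternatives (highest adjusted p = 0.0437, unmoderated model).

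Cst3 (10850563), cystatin C, a secreted inhibitor of cysteine proteases such as the cathepsins, stood at 10.29, 10.33 and 10.49 with fibrinogen, against 9.97, 9.87 and 9.81 in control. The groups did not overlap, and the rise was 1.40-fold (log2 fold change 0.49, SE 0.09, 95% interval 0.28 to 0.69, adjusted p = 0.0214). The call was kept without control 1 and lost without any 1 of the other 5 arrays (highest adjusted p = 0.0771, without fibrinogen 3). The other 6 cystatin genes did not pass. Cst6 (cystatin M) stood at 5.28 to 5.71 with fibrinogen and 5.55 to 6.03 in control (log2 fold change -0.28), and Cst7 (cystatin F, made by immune cells) at 4.98 to 5.41 with fibrinogen and 4.90 to 5.75 in control (-0.06). Spint1, an inhibitor of the membrane-bound serine proteases, was dim and had groups apart (log2 fold change -0.33, adjusted p = 0.231). Its relative Spint2 had the same mean in both groups, and the inter-alpha-inhibitor heavy chain gene Itih3 was at -0.13.

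Of 39 membrane-anchored and other serine proteases, 1 fell (2.56%, beside 3.00% of all genes) and 38 did not pass. Of the 39, 34 lay below the median probe. Tmprss11f (10772020), a membrane-anchored serine protease, stood at 3.46, 3.53 and 3.96 with fibrinogen, against 5.68, 6.07 and 5.17 in control. The groups lay more than 1 log2 unit apart, with the widest spread within groups of the 7 called genes. It fell 3.97-fold (log2 fold change -1.99, SE 0.24, 95% interval -2.54 to -1.44, adjusted p = 0.00487), the largest fall among all 13355 genes. Both group means lay below the median probe, so how much of this signal is above background is unknown, and the call was lost in the unmoderated model (adjusted p = 0.0602). The 10 other Tmprss genes had log2 fold changes of -0.57 to 0.14. Tmprss11g, a member of the same subfamily by name, stood at 3.47 to 3.68 with fibrinogen and 3.40 to 3.96 in control (-0.21).

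Tmprss5 (spinesin, a membrane serine protease of the nervous system) was the next lowest of the Tmprss genes. It stood at 6.0, 5.84 and 6.20 with fibrinogen, against 6.79, 6.75 and 6.20 in control; control 3 was level with fibrinogen 3 and well under the other control arrays. The log2 fold change was -0.57 (SE 0.17, adjusted p = 0.112). It passed without control 3 (-0.76, adjusted p = 0.0322), with genes below the median probe left out (adjusted p = 0.0467) and with an intensity trend (adjusted p = 0.0325). Prss23, a secreted serine protease, had groups apart at 5.99, 6.10 and 5.94 with fibrinogen, against 5.81, 5.72 and 5.79 in control, and did not pass (0.24, adjusted p = 0.132). It was called with genes below the median probe left out (adjusted p = 0.0437), but its mean of 6.01 with fibrinogen lay above that probe and its mean of 5.77 in control below it, so it cleared this filter through the group where it was higher. Prss32 and Prss54 were dim, with log2 fold changes of -0.56 and -0.46, and Prss32 passed without control 2 (adjusted p = 0.0361). Prss12 (neurotrypsin, a protease of synapses) was at -0.10. Htra1 and Htra2, a secreted and a mitochondrial serine protease, overlapped at -0.04 (95% interval -0.53 to 0.46) and 0.07 (95% interval -0.34 to 0.47).

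None of the 18 kallikrein genes passed in limma, while 2 of them, Klk1c12 and Klk1c2, had an unadjusted p below 0.05 (log2 fold changes -0.38 and -0.20), both dim and lower with fibrinogen. None of the 18 was called under any of the 15 alternatives either, and all 18 lay below the median probe. Klk6, a secreted protease known from oligodendrocytes, stood at 5.48, 5.41 and 4.97 with fibrinogen, against 5.20, 5.02 and 5.22 in control, with overlap (0.14, 95% interval -0.20 to 0.48). Klk8 (neuropsin) was at 0.04. Klk1 (tissue kallikrein, which releases kinins) had the largest positive change of the family at 0.50, with 5.08 to 5.18 in fibrinogen arrays; control 1 at 3.97 lay well under control 2 and 3 at 4.86 and 5.09, and the change did not pass (adjusted p = 0.344). The Klk1c genes are a family of close copies in the rat, so probes may share signal between them; 7 were measured. Klk1c10 was the 1 member with several probes, and its 3 probes gave log2 fold changes of -0.14, -0.42 and -0.08.

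**Figure D4:**
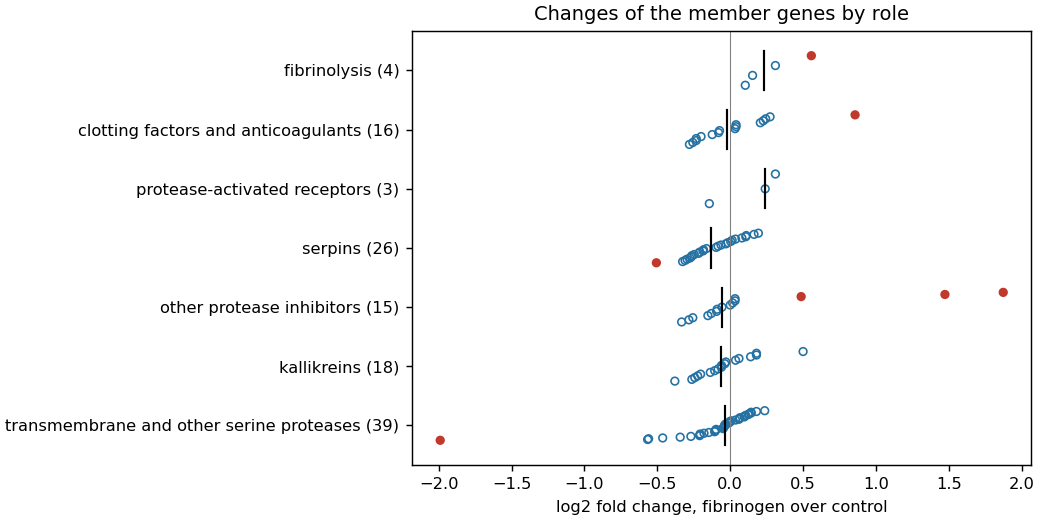
Each circle is 1 of the 121 genes at its log2 fold change, fibrinogen over control, in rows by role; filled circles passed the threshold, black bars are row medians, and the number in brackets is the number of genes. The medians lie between -0.13 (serpins) and 0.24 (receptors), and most of the open circles lie less than 0.5 from 0.

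Across the members, 20 had an unadjusted p below 0.05 (16.5%, beside 21.1% of all genes), 10 higher and 10 lower. The 13 that did not pass after adjustment were Prss54, Tmprss5, Prss32, Klk1c12, F2r, Prss23, Pros1, Plaur, Serpinf2, Fgb, Klk1c2, F2rl2 and Spint1. Changes were small for most: 112 of the 121 lay less than 0.5 log2 units from 0, Klk1 being at 0.50. Of the changes, 48 were positive and 72 negative, Spint2 being at 0. Over all genes 6704 were positive and 6548 negative, and over the genes below the median probe 2421 were positive and 3340 negative. With arrays centred on their medians the split of the members was 36 to 85, and with quantile normalization again 53 to 68. The split of all called genes, 555 higher and 401 lower, became 434 higher and 516 lower with arrays centred.

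Partners of these pathways that the symbols do not cover were counted from a list of 42 genes, of which 36 were measured: 4 rose, 1 fell and 31 did not pass, with a median log2 fold change of -0.04, against 0.003 for all genes. The 5 called are 13.9% of the measured list, beside 7.16% of all genes. Of the 18 at or above the median probe 4 were called (22.2%, beside 11.2% of all genes at or above it), and of the 18 below it 1 was called (5.56%, beside 1.93% of all genes below it). These shares rest on few genes, and the list was chosen with earlier results known. S100a10, the annexin A2 partner that binds plasminogen at the cell surface, stood at 11.14, 11.03 and 11.08 with fibrinogen, against 10.05, 10.01 and 10.06 in control (2.06-fold higher, adjusted p = 0.00141). Its partner Anxa2 overlapped (0.04). Pdgfc, a growth factor activated by the tissue-type plasminogen activator, stood at 8.34, 8.09 and 8.17 with fibrinogen, against 7.22, 7.38 and 7.41 in control (1.82-fold higher, adjusted p = 0.00411). Eno1 (enolase 1, a glycolytic enzyme that can bind plasminogen) and Itgb8 (an integrin subunit that activates TGF-beta) rose by 0.33 and 0.47 on the log2 scale (adjusted p = 0.0385 and 0.0449). Eno1 had 3 probes, and its values are those of the probe with the highest mean alone. Itgam, the fibrinogen-binding integrin of microglia and a dim gene here, fell by 0.60 (adjusted p = 0.0357). Vldlr (a lipoprotein receptor that takes up protease-serpin complexes) was at -0.35 (adjusted p = 0.0510) and Lrp1 (the receptor that clears alpha-2-macroglobulin and the plasminogen activators) at 0.40 (adjusted p = 0.137).

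**Figure D5:**
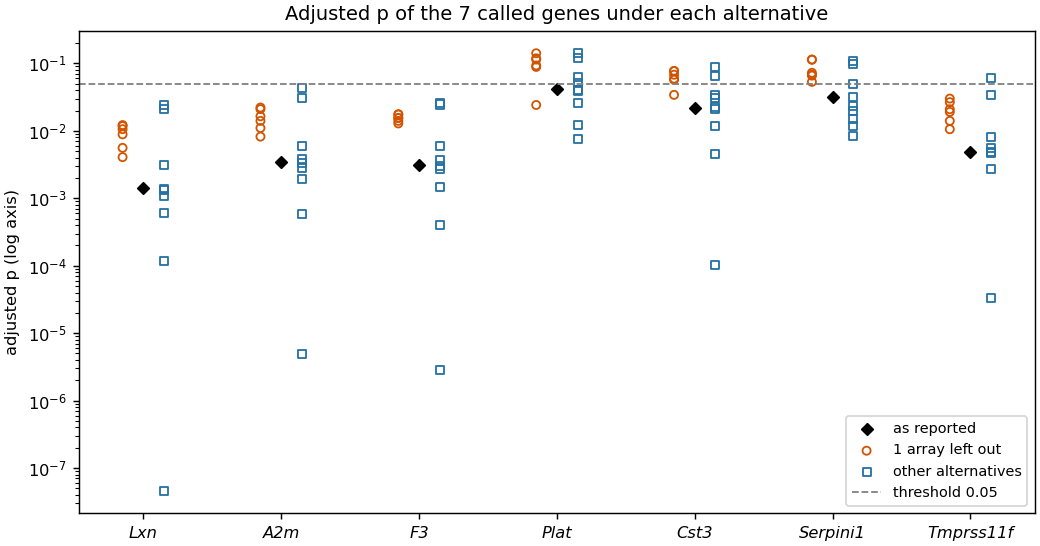
The y axis is the adjusted p on a log axis for the 7 called genes, as reported (black diamonds), with 1 array left out (orange circles) and under the other alternatives (blue squares); the dashed line is the threshold of 0.05. Lxn, A2m and F3 stay below the line throughout, Tmprss11f crosses it in the unmoderated model, and Plat, Cst3 and Serpini1 cross it with single arrays left out.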

How the data were processed

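The values analysed are log2 expression as deposited by the authors, for each probe set on each array. The submitters' processing notes name RMA and limma and give no version; the build is not given in the sources used here. Per the labels' protocols, RNA was column-purified with DNase, amplified with a NuGEN kit and labelled with biotin. Of 26312 probe rows, 23631 have values and 2681 are empty on every array. The array medians lie between 5.78 and 5.84.

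Probes with 1 gene symbol in the platform annotation were used (14083 probes, 13355 genes, the probe with the highest mean per gene); all 121 members matched a current RefSeq record. The groups were compared with limma 3.58.1 under R 4.3.3 (a two-sided moderated test from lmFit and eBayes, without covariates or a filter on dim probes), with Benjamini-Hochberg adjustment over 13355 genes and a threshold of 0.05. Errors are moderated SEs and 95% intervals; the median SE was 0.104. The number of arrays limits the precision, and an exact permutation test of 1 gene cannot go below 0.1. The fit was also run on simulated arrays with independent normal noise at the fitted variances. That cannot show how it handles technical replicates, array scaling or dim probes. Named genes were the members past the threshold or past an unadjusted p of 0.05, and a set of 51 listed by name (46 measured). The members and lists were chosen with earlier results of these data known. Alternatives left out each array, added a replicate block, filtered dim genes, rescaled arrays, changed the probe choice and changed the variance model.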

Additional observations from a re-analysis of the deposited data

How the results depend on the processing

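The 7 called members kept their direction under every alternative that tested them. Of 104 recomputed values 78 kept the call and 26 lost it, all for Plat, Cst3, Serpini1 and, in the unmoderated model, Tmprss11f. The filter at the median probe left Tmprss11f out. It cleared the filter at the 25th percentile of the probes (4.40) only through its control mean of 5.64, its fibrinogen mean being 3.65. Its kept call under that filter is therefore no support. The count of called members was 4 to 6 with 1 array left out, 4 with the replicate block and 3 in the unmoderated model, against 7 as reported; the other alternatives gave 5 to 9. The count over all genes was 358 to 592 with 1 array left out, 343 with the replicate block, 1508 with genes below the median probe left out, 1639 with an intensity trend and 500 in the unmoderated model, against 956 as reported. Under the block, Lxn, F3, A2m and Tmprss11f kept their call. The labels give no pairing, and same-numbered arrays did not deviate together (correlations of 0.02, -0.14 and -0.07 across genes), so the block changes the residual degrees of freedom without a known pair. Leaving out arrays or adding a block lowers the degrees of freedom; the cause of the other shifts was not tested. Of the named members that were not called, Tmprss5, Prss32, F2r and Prss23 gave 6 calls over all alternatives, that of Prss23 under a filter on dim genes that it cleared through its fibrinogen mean. Dim signal limits what can be read from 105 of the 121 members.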

Other observations

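Probes that carry several gene symbols entered no gene-level test. There were 4 such probes with a symbol of these families, all with values on every array and all dim. The probe shared by Serpina9 and Serpina12 (10891968) stood at 4.0, 3.77 and 3.67 with fibrinogen, against 3.75, 3.98 and 3.94 in control, and the probe shared by Serpina11 and Serpina9 (10891956) at 4.01, 3.92 and 3.77 with fibrinogen, against 3.78, 3.96 and 4.15 in control. The 2 probes of the pancreatic trypsin genes Prss2 and Prss3 (10854942, shared with Try10, and 10862184) had log2 fold changes of 0.09 and 0.04. None of the 4 passed in limma over all 23631 valued probes (lowest adjusted p = 0.795, limma), and 0 of the 4 had an unadjusted p below 0.05.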
